A study of Mus musculus with 12 samples.

Results

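The genes described here are 2 FOXO transcription factors and 7 genes that FOXO activity or T cell quiescence is known to govern, in mouse thymus. They are Foxo1, Foxo3, Klf2, S1pr1, Ccr7, Txnip, Pik3ip1, Sesn3 and Ccng2, chosen by name, and all 9 of them were found by symbol among the 51734 gene symbols of every library. All 9 were among the 40484 genes kept for testing. Polyadenylated RNA was sequenced as paired reads of 75 bases in 12 thymus libraries of strain F5. The 3 controls came from healthy mice with the genotype given as control, and the 9 tumors were T cell acute lymphoblastic leukemias (T-ALL) of mice with tetracycline-inducible IL-7Rα, titled as induced with Dox. The labels name neither the promoter that drives the transgene nor the dose of the drug, its duration or the age of the mice. Whether the libraries of a group are separate animals is not said either. The p-values thus speak for the variation among libraries, part of which may be technical.

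FOXO proteins are forkhead transcription factors that AKT holds outside the nucleus once PI3K signaling, for example downstream of the interleukin-7 receptor, switches it on. When PI3K signaling is low, FOXO proteins enter the nucleus and switch on genes of cell cycle arrest, stress resistance and metabolic restraint. In T cells Foxo1 also maintains Klf2, a Krüppel-like factor of resting cells, and through it the receptors S1pr1 and Ccr7, which guide mature thymocytes and naive T cells out of the thymus and into lymph nodes. PI3K-AKT control acts on where the FOXO protein is in the cell, which RNA levels do not measure.

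The promoter sequences show where the forkhead element, GTAAACA, and its core, AAACA, lie in these genes. RefSeq promoter windows (GRCm38.p6), each from 250 bases before to 50 bases after an annotated start, were found for 7 of the 9 genes, and S1pr1 and Ccr7 were not among them. Both strands were searched. GTAAACA stood in 1199 of 32851 windows, or 3.65%, and among the 7 genes in the window of Txnip alone, 121 bases before the start. The shorter AAACA, which is contained in GTAAACA, stood in 50.5% of all windows and in those of 4 of the 7 genes. The 250 bases before the start of Txnip are shown because they hold the full element. The stretches around AAACA in the other 3 genes are printed after it for comparison. The core begins 14 and again 8 bases before the start of Ccng2, 196 bases before that of Foxo1 and 21 bases after that of Pik3ip1. These RefSeq starts of Ccng2 and Pik3ip1 lie inside the GENCODE gene spans given with the values, so their matches fall within the annotated genes. Capitals mark the matched letters, and the plus strand of GRCm38.p6 is shown for all 4 genes.
Txnip chr3:96557707-96557956: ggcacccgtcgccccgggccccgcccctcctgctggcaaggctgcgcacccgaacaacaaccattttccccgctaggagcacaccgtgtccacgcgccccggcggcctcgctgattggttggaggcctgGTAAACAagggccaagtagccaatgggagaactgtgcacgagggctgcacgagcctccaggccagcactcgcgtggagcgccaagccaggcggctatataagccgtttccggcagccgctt
Ccng2 chr5:93267547-93267575: gtcgcagactcaAAACAaAAACAaggggt
Foxo1 chr3:52268129-52268157: ccagagactcagAAACActtgagaattac
Pik3ip1 chr11:3330740-3330768: ctttcagctgaaAAACAcctcggctgcag
These matches describe letters in the windows, and binding of a FOXO protein was not measured.

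The libraries did not fall along the labels alone. Totals were 8133152 to 12019924 estimated counts in the controls and 11617724 to 34769946 in the tumors. Tumors 1 to 6 stood apart, with mitochondrial genes holding 31.6% to 69.3% of their counts, against 0.0949% to 11.1% for the other 6 libraries. As a check of the labelled tissue, 9 T cell markers such as Cd3e and Thy1 were summed in CPM, counts per 1000000 of the library total, divided by a TMM factor (trimmed mean of M-values), the unit of all levels that follow. The sum was 30.3 to 81.2 CPM in the controls and 42.7 to 98.9 CPM in tumors 7 to 9, and 1341 to 1925 CPM in tumors 1 to 6, and no marker was at 0 throughout a set. A background level was taken from 1449 receptor genes of smell and pheromone sensing, which are not known to act in thymus. Their median was 0.776 to 0.830 CPM per kilobase of transcript for the controls, 0.665 to 0.844 for tumors 7 to 9 and 0 to 0.516 for tumors 1 to 6. The 3 controls and tumors 7 to 9 thus lay together on each of these measures, and comparisons are given for all tumors and for both sets of tumors. The marker levels do not show that the control RNA came mainly from thymocytes, and the reason was not tested. Levels above the controls are therefore not shown to be above those of normal thymocytes.

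Levels of both FOXO factors were higher in tumors 1 to 6 than in any control. Foxo1 (ENSMUSG00000044167, GRCm38 chr3:52268336-52353221, plus strand) encodes the FOXO factor that naive T cells depend on. Its level was 5.14, 5.09 and 5.42 CPM in controls 1 to 3, 6.82, 8.04 and 6.47 CPM in tumors 7 to 9, and between 13.5 and 40.0 CPM with a median of 17.3 CPM in tumors 1 to 6. All 9 tumors lay above all 3 controls, and tumor 4 was the highest, with the other 5 of tumors 1 to 6 at 13.5 to 20.7 CPM. In the controls, however, Foxo1 lay at 0.743 to 0.779 times the receptor-gene median per kilobase, so that its control level could not be told from that background. Its level in tumors 7 to 9 was also near background, at 0.90 to 1.42 times the median.

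Foxo3 (ENSMUSG00000048756, chr10:42181841-42276755, minus strand) encodes a second FOXO factor with many of the same targets. Its level was 6.13, 4.00 and 4.82 CPM in the controls, 5.38, 6.86 and 5.30 CPM in tumors 7 to 9, and 31.0 to 52.5 CPM with a median of 45.5 CPM in tumors 1 to 6. Tumors 1 to 6 were thus all above the controls, and tumors 7 to 9 overlapped them. Per kilobase, Foxo3 was higher than Foxo1 in each of tumors 1 to 6, at 5.44 to 13.4 against 1.58 to 4.71 CPM per kilobase.

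Klf2, S1pr1 and Ccr7, the genes of the trafficking program, rested on few counts, at most 59 in any of tumors 1 to 6. Klf2 (ENSMUSG00000055148, chr8:72319033-72321656, plus strand) had 1.26, 0.546 and 0.688 CPM in the controls and 0.578, 2.03 and 1.31 CPM in tumors 7 to 9. Tumors 1, 2, 4 and 6 stood at 3.63, 4.17, 6.82 and 3.76 CPM, above every control, while tumors 3 and 5 stood at 1.11 and 1.04 CPM, within the range of the controls. These values rest on 9 to 59 counts in tumors 1 to 6. Per kilobase, Klf2 lay at 0.404 to 0.967 times the receptor-gene median in the controls and at 4.0 times the lower median of tumor 3. In tumor 5, where that median was 0, Klf2 exceeded 86.1% of the receptor genes.

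S1pr1 (ENSMUSG00000045092, chr3:115710433-115715072, minus strand), the receptor for sphingosine 1-phosphate that lets thymocytes leave, had 2.88, 1.93 and 2.67 CPM in the controls and 2.66, 1.95 and 2.48 CPM in tumors 7 to 9. In tumors 1, 2, 3, 5 and 6 it was lower than in any control, at 1.39, 0.521, 0.247, 0.598 and 0.574 CPM, or 13, 4, 2, 15 and 9 counts. Tumor 4 went the other way, at 5.32 CPM from 39 counts, above every other library. In the controls and tumors 7 to 9, S1pr1 lay at 0.831 to 1.29 times the receptor-gene median, that is, near background. The background itself was lower in tumors 1 to 6, where S1pr1 lay at 0.940, 0.384, 0.524 and 6.60 times that median in tumors 1 to 4 and at 9.03 times in tumor 6. The median of tumor 5 was 0, so no ratio was formed there.

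Ccr7 (ENSMUSG00000037944, chr11:99144196-99155077, minus strand), a chemokine receptor of mature thymocytes and dendritic cells, had 2.32, 1.13 and 0.769 CPM in the controls and 1.04, 1.57 and 1.64 CPM in tumors 7 to 9. Tumors 1 to 4 held 4.38, 1.96, 1.24 and 2.59 CPM. Tumor 5 held no count of Ccr7, where 3 counts would be 0.120 CPM, and tumor 6 held 2 counts, or 0.128 CPM. The groups overlapped in CPM for both receptors. Against the receptor-gene median of each library, Ccr7 lay at 0.51 to 1.65 times in the controls and at 2.29 to 5.13 times in tumors 1 to 4. In tumor 6 it lay at 3.19 times, from its 2 counts, and in tumor 5 no ratio was formed. The receptor-gene median was itself lowest in tumors 5 and 6, at 0 and 0.0221 CPM per kilobase.

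Other cells of the thymus also express these 3 genes, and their markers varied between the tumors. The summed level of 10 markers of mature single-positive thymocytes was 57.7 to 73.8 CPM in the controls and 335, 152, 91.2, 378, 105 and 141 CPM in tumors 1 to 6. Tumors 4 and 1, the highest for that sum, were also the highest for S1pr1 and Ccr7 respectively. The 9 dendritic cell markers summed to 34.6 to 35.7 CPM in the controls and to 11.98 to 82.5 CPM in tumors 1 to 6, where tumors 5 and 6, the lowest for Ccr7, were the lowest too. H2-Aa alone was 39.0 CPM in tumor 1 and 25.3 CPM in tumor 4 against 1.46 to 1.58 CPM in the controls, while Zbtb46 had 3.31 to 7.16 CPM in tumors 1 to 6 against 6.62 to 7.16 CPM in the controls. The 10 endothelial markers summed to 60.2 to 105 CPM in the controls and 186 to 1156 CPM in tumors 1 to 6, of which Pecam1 alone was 175 to 1151 CPM, while Cdh5 was at 0.0637 to 2.09 and Kdr at 0.255 to 5.21 CPM. No marker of the 3 lists was at 0 in all libraries of a group, and the part of these cells in the levels was not tested. In bulk RNA, fewer cells that express a gene and less of its RNA in each cell cannot be told apart.

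Txnip, Pik3ip1 and Ccng2 were higher in each of tumors 1 to 6 than in any control, and Txnip reached the highest level of all in tumor 6. Txnip (ENSMUSG00000038393, chr3:96557957-96561883, plus strand), whose promoter window holds the full forkhead element, encodes thioredoxin-interacting protein, an arrestin-like protein that limits glucose uptake. Its level was 2.29, 1.97 and 2.06 CPM in the controls, 2.49, 2.45 and 3.39 CPM in tumors 7 to 9, and 35.4, 25.8, 21.4, 35.8, 67.3 and 333.7 CPM in tumors 1 to 6. All 9 tumors lay above all 3 controls, although tumors 7 to 9 only narrowly, and tumor 6 alone was far above the rest.

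Pik3ip1 (ENSMUSG00000034614, chr11:3330401-3342971, plus strand) encodes a membrane protein that restrains PI3K. It had 3.18, 2.18 and 2.67 CPM in the controls, 2.49, 2.88 and 2.08 CPM in tumors 7 to 9, and 17.5 to 39.3 CPM with a median of 27.5 CPM in tumors 1 to 6. Tumor 4 was the lowest of tumors 1 to 6 for Pik3ip1 and the highest for Foxo1.

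Ccng2 (ENSMUSG00000029385, chr5:93267257-93276231, plus strand) encodes cyclin G2, an unusual cyclin linked to cell cycle arrest. It had 3.18, 3.35 and 4.01 CPM in the controls, 4.05, 4.32 and 3.08 CPM in tumors 7 to 9, and 28.3 to 53.2 CPM with a median of 32.7 CPM in tumors 1 to 6. Ccng2 varied little between tumors 1 to 6, the highest being 1.88 times the lowest, against 1.69 times for Foxo3, 2.25 times for Pik3ip1, 15.6 times for Txnip and 21.6 times for S1pr1.

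Sesn3 (ENSMUSG00000032009, chr9:14275067-14333101, plus strand), which encodes sestrin 3, a restraint on mTOR signaling, was the one gene of the group well above background in the controls. It lay at 14.2 to 24.7 times the receptor-gene median there, against 0.404 to 3.27 times for the other 8 genes. This sums all transcripts, and those annotated as retained introns or without a coding sequence held 73.8% to 86.6% of its control counts. In tumors 1 to 6 that share was 20.9% to 38.8%. The coding transcripts alone were not set against the background. Over all transcripts, Sesn3 was at 31.3, 27.0 and 42.0 CPM in the controls and 16.1, 30.7 and 27.5 CPM in tumors 7 to 9. Tumors 1 to 6 held 43.2 to 102 CPM of it, with a median of 85.8 CPM. Tumor 1, the lowest of tumors 1 to 6, exceeded control 3 by a small margin only.

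**Figure D1:**
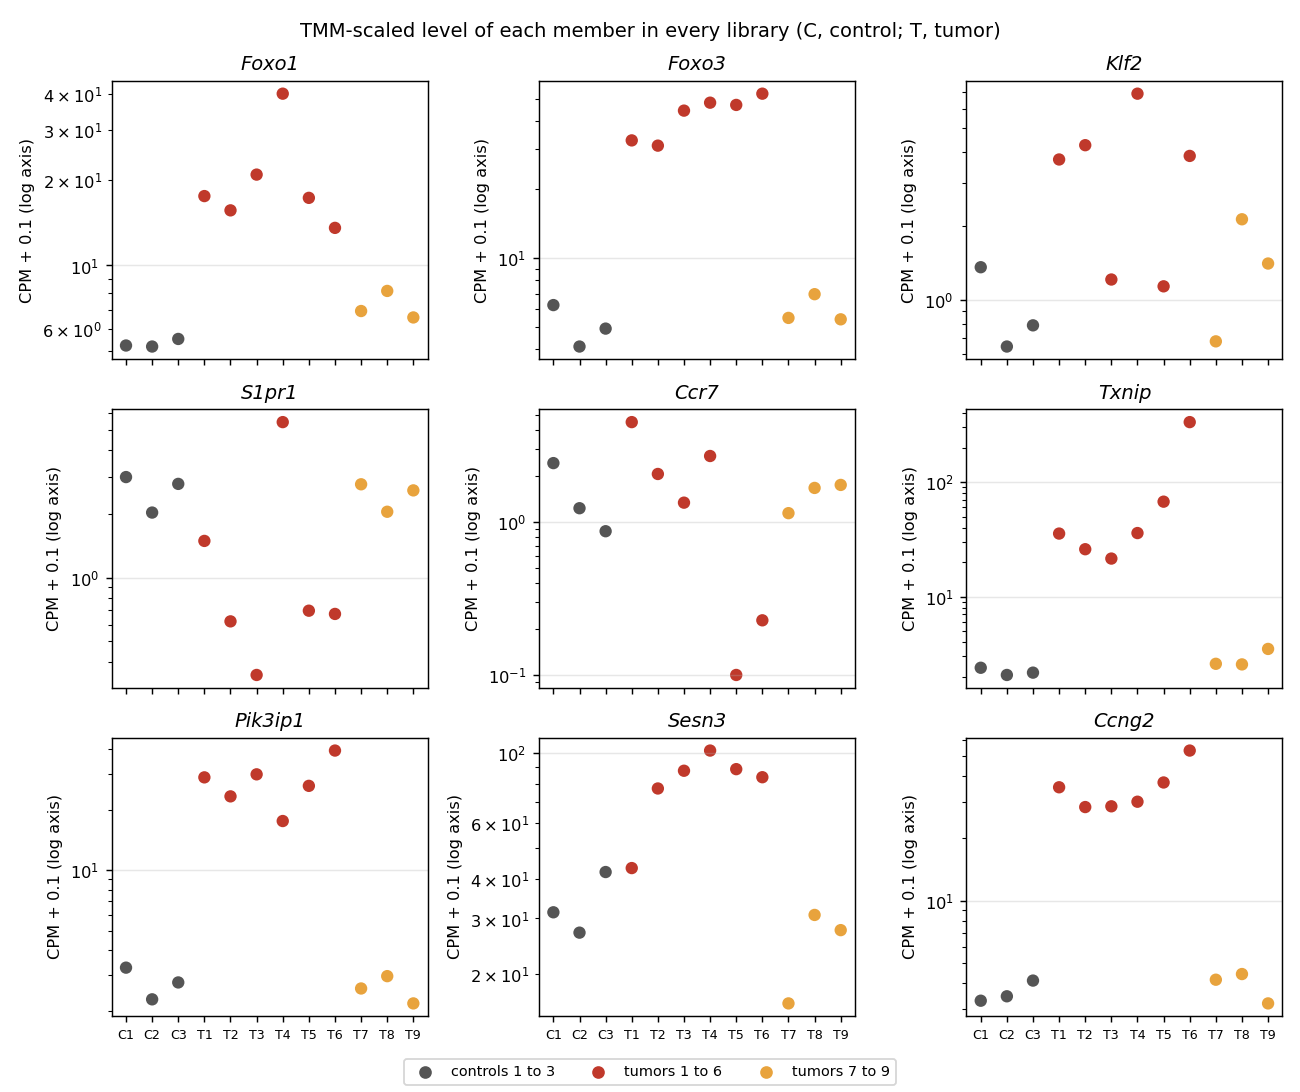
Level of each of the 9 genes in every library, as TMM-scaled CPM plus 0.1 on a log axis, with controls (C) in grey, tumors 1 to 6 in red and tumors 7 to 9 in orange; each point is 1 library. Foxo1, Foxo3, Txnip, Pik3ip1, Sesn3 and Ccng2 show every red point above every grey point, and the orange points lie near the grey ones.

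**Figure D2:**
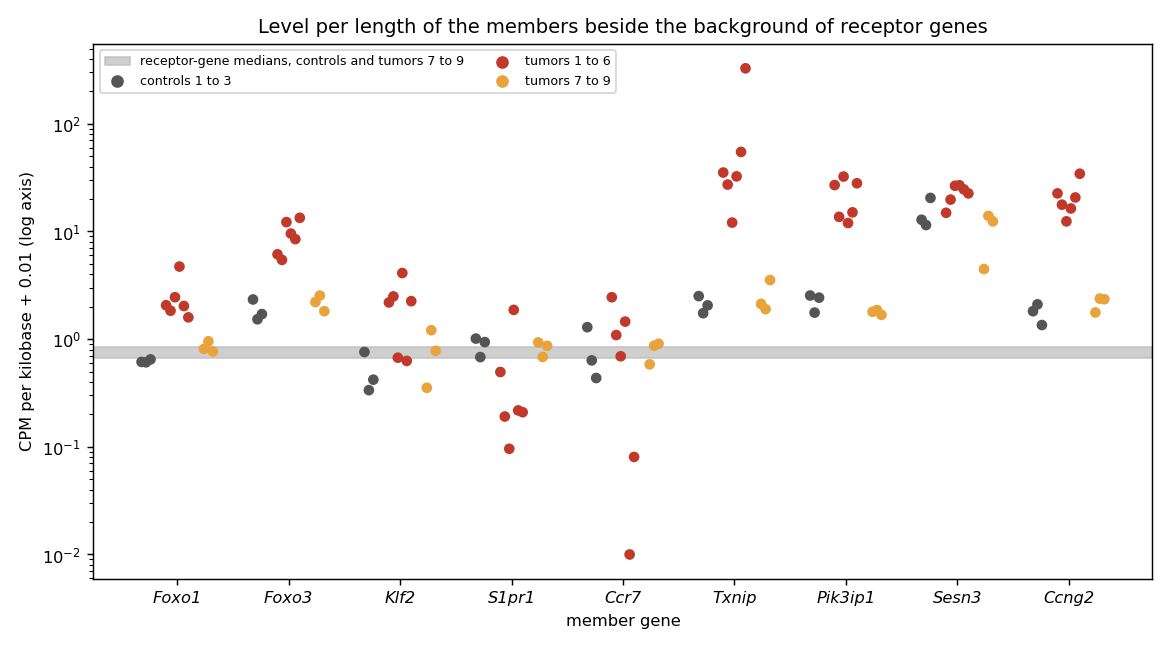
Level per kilobase of transcript (CPM per kilobase plus 0.01, log axis) of the 9 genes in all 12 libraries; the grey band spans the receptor-gene medians of the controls and tumors 7 to 9, from 0.665 to 0.844. Grey and orange points of Foxo1, Klf2, S1pr1 and Ccr7 lie around the band, and only Sesn3, summed over all its transcripts, stands well above it in the controls.

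Among themselves the genes kept a similar order per kilobase in tumors 1 to 6. Txnip was first in tumors 1, 2, 4, 5 and 6, at 27.3 to 328 CPM per kilobase, and below 4 of the other genes in tumor 3, at 12.1, where Pik3ip1 led with 32.4. Pik3ip1 (11.97 to 32.4), Sesn3 (14.9 to 26.9) and Ccng2 (12.4 to 34.4 CPM per kilobase) overlapped in range and changed places from tumor to tumor. Foxo3 came next, except in tumor 3, where it lay just above Txnip and below Ccng2, and Foxo1, Klf2, Ccr7 and S1pr1 took the last 4 places in every one. In tumor 6, Txnip exceeded 99.7% of protein-coding genes per kilobase.

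Across all 9 tumors, edgeR's quasi-likelihood test called none of the 9 genes at an adjusted p below 0.05. The background was 0.0% of the 40484 tested genes called higher and 0.00494% called lower, so the members' count of 0 equals the background. At an unadjusted p below 0.05, 6 of the 9 genes were higher, as were 6851 genes in all, and 446 were lower. Fitted log2 fold changes of tumor over control were 4.80 (SE 1.55, adjusted p = 0.128) for Txnip, which came to 3.52 without tumor 6, 2.83 (SE 0.937, adjusted p = 0.128) for Pik3ip1 and 2.82 (SE 0.904, adjusted p = 0.128) for Ccng2. Foxo3 had 2.60 (SE 0.846, adjusted p = 0.128), Klf2 1.68 (SE 0.777, adjusted p = 0.257) and Foxo1 1.63 (SE 0.614, adjusted p = 0.147). Sesn3 at 0.89, Ccr7 at 0.18 and S1pr1 at -0.52 had adjusted p of 0.582, 0.912 and 0.701. DESeq2 on the same counts called 4 of the 9 higher (Foxo3, Txnip, Pik3ip1 and Ccng2, adjusted p 0.00161 to 0.0156) and none lower, with 9.96% of all tested genes called higher and 0.126% lower.

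By order alone, 2 of the 9 genes (Foxo1 and Txnip) had all 9 tumors above all 3 controls, against 1.63% of tested genes, and none had them all below, against 3.1%. Tumors 1 to 6 all lay above the controls for 6 of the 9, against 20.3% of tested genes, and for none of the 9 did they all lie below, against 26.6%. Tumors 7 to 9 all lay above the controls for Foxo1 and Txnip, against 7.23% of tested genes, and below for none, against 7.26%. For Foxo1 both of these sets lay near the receptor-gene median, so that order compares levels near background.

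The call depended on tumors 7 to 9. Without them, the edgeR quasi-likelihood fit called 6 of the 9 genes higher and none lower, where 19.6% of 38534 tested genes were called higher and 20.3% lower. The calls were Foxo3 (log2 fold change 2.83, adjusted p = 7.18e-05), Pik3ip1 (3.09, adjusted p = 6.15e-05), Ccng2 (3.07, adjusted p = 7.44e-05), Txnip (5.21, adjusted p = 0.00243), Foxo1 (1.66, adjusted p = 0.00358) and Sesn3 (0.98, adjusted p = 0.0431). Klf2 reached 1.72 (adjusted p = 0.0613), S1pr1 -1.16 (adjusted p = 0.231) and Ccr7 -0.11 (adjusted p = 0.930). With tumors 7 to 9 alone against the same 3 controls, none of the 9 was called at an adjusted p below 0.05 by edgeR, where 0.0247% of 36420 genes were called in each direction; 1 of the 9, Foxo1, had an unadjusted p below 0.05 (log2 fold change 0.43, adjusted p = 0.520).

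The directions also rest on the scaling. TMM placed the median tested gene at a log2 fold change of -0.45, size factors of the RLE method at -0.72 and plain library totals at -1.83. Under library totals Foxo1, Klf2, Ccr7 and Sesn3 turned to -0.56, -0.34, -1.60 and -1.20, while Foxo3, Txnip, Pik3ip1 and Ccng2 stayed positive. On log2(TPM + 1), where mitochondrial transcripts take their share of each library, all but Txnip had a negative fold change. There limma called S1pr1 (-1.11, adjusted p = 0.00201), Ccr7 (-0.90, adjusted p = 0.00945) and Sesn3 (-2.20, adjusted p = 0.00534) lower, 3 of the 9 against 79.3% of all tested genes, and none of the 9 higher against 0.309%.

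Other genes of the FOXO and PI3K pathway were likewise called by edgeR in tumors 1 to 6 and not across all 9 tumors, where DESeq2 did call some. Of 22 further genes that FOXO factors are known to induce, edgeR called 0 across all tumors, with a median log2 fold change of 1.77 against -0.45 for all genes, and DESeq2 called 10 higher. DESeq2 called 9.96% of all tested genes higher and 0.126% lower, the background for its counts in the other lists too. Without tumors 7 to 9 edgeR called 15 of the 22 higher and none lower, beside 19.6% of all tested genes higher and 20.3% lower, the background for the other lists too. Il7r, itself both a FOXO target and the induced gene, had 2.52 to 3.20 CPM in the controls. Tumors 1 to 6 held 33.3 to 513 CPM of Il7r, and tumors 7 to 9 held 5.03 to 5.63 CPM. The deposited values do not separate transgene from endogenous Il7r. Rictor, a part of the mTORC2 complex that activates AKT, had 7.13 to 7.75, 58.6 to 155 and 7.57 to 8.79 CPM in the same 3 sets.

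Of 26 genes of the PI3K-AKT pathway and of FOXO control, edgeR called 0 across all tumors (median 1.93) and DESeq2 10 higher, and 21 were called by edgeR higher and none lower without tumors 7 to 9. Ywhaz, a 14-3-3 protein of the family that holds phosphorylated FOXO in the cytoplasm, rose without tumors 7 to 9 by a log2 fold change of 5.12 (edgeR adjusted p = 4.98e-05), from 6.11 to 9.38 CPM in the controls to 210 to 669 CPM in tumors 1 to 6.

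Of 11 other genes of quiescence, edgeR called 0 across all tumors (median 2.24) and DESeq2 5 higher, and edgeR called 8 higher without tumors 7 to 9. Foxp1, a forkhead factor that keeps naive T cells resting, had 7.28 to 9.41 CPM in the controls and 50.3 to 137 CPM in tumors 1 to 6, and Klf3 had 9.93 to 12.03 and 13.5 to 104 CPM. Of 16 relatives of the 9 genes by family, edgeR called 0 across all tumors (median 1.26) and DESeq2 3 higher, and edgeR called 8 higher and 1 lower once tumors 7 to 9 were left out. Ccr9, the thymic homing receptor related to Ccr7, had 18.3 to 30.7 CPM in the controls and 26.2 to 349 CPM in tumors 1 to 6, and the cyclin Ccni had 4.91 to 6.26 and 42.4 to 77.4 CPM. The 9 genes had a median of 1.68 across all tumors, between that of the relatives and that of the further FOXO-induced genes.

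Whether the genes vary together from tumor to tumor was examined over tumors 1 to 6, and no relation passed the test. The median Pearson r of log2(CPM + 1) over the 36 pairs was 0.099, with 20 pairs above 0. With Il7r, Mki67 and the mitochondrial percentage included, 63 relations were tested by exact permutation over the 720 orderings, and none passed Benjamini-Hochberg adjustment (smallest adjusted p = 0.263 for Pearson and 0.7 for Spearman). An unadjusted p below 0.05 was reached by 5 relations for Pearson and 3 for Spearman. The 6 tumors share the TMM scaling and differ in depth, which enters every pair.

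Tumors 4 and 6 held most of the highest values, and on different genes. Tumor 4 was the highest of the 6 for Foxo1, Klf2, S1pr1 and Sesn3, 4 of the 9, against 8.09% of 11478 tested genes of at least 5 CPM on average. That set does not hold Klf2, S1pr1 and Ccr7, so of these 4 only Foxo1 and Sesn3 can be set beside it. Tumor 6 was the highest for Foxo3, Txnip, Pik3ip1 and Ccng2, also 4 of the 9 and all within that set, against 13.4% of the genes in it. Tumor 1 was highest for Ccr7, and tumors 2, 3 and 5 were highest for none. The lowest values were spread over all 6 tumors: tumor 1 was lowest for Sesn3, tumor 2 for Foxo3 and Ccng2, tumor 3 for Txnip and S1pr1, and tumor 5 for Klf2 and Ccr7. Tumor 6 was at the same time the lowest for Foxo1, and tumor 4 the lowest for Pik3ip1.

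**Figure D3:**
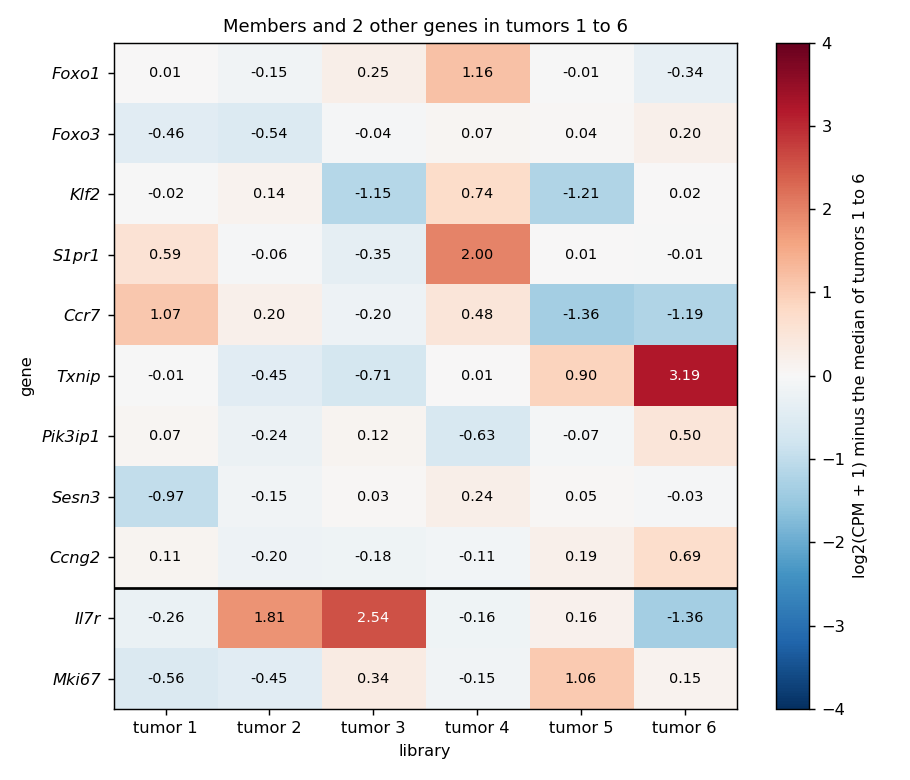
Level of the 9 genes, and below the line of Il7r and Mki67, in each of tumors 1 to 6 as log2(CPM + 1) minus the median of the 6; red is above and blue below that median. Tumor 4 is high for Foxo1 (1.16) and S1pr1 (2.00), and tumor 6 for Txnip (3.19).

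The pair with the highest r was Txnip with Ccng2 (r = 0.971, exact permutation p = 0.00556, adjusted p = 0.263; rho = 0.886, exact permutation p = 0.0333). Without tumors 5 and 6, the farthest from the median of Txnip, r was 0.708. Foxo1 with S1pr1 followed (r = 0.843, exact permutation p = 0.0986, adjusted p = 0.525; rho = 0.371), but r was -0.393 without tumors 4 and 6 and -0.199 without tumor 4 alone. That relation rests on tumor 4. Klf2 with S1pr1 had r = 0.719 (exact permutation p = 0.117, adjusted p = 0.525; rho = 0.314), and 0.487 without tumor 4.

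Among the trafficking genes, Klf2 with Ccr7 had r = 0.534 (exact permutation p = 0.272; rho = 0.543) and S1pr1 with Ccr7 had r = 0.494 (exact permutation p = 0.332; rho = 0.429), which became -0.538 without tumors 1 and 4. The FOXO factors themselves gave r = 0.238 with each other (exact permutation p = 0.722; rho = -0.029), and Foxo1 with Klf2 gave r = 0.381 (exact permutation p = 0.511; rho = 0.086), or -0.699 without tumor 4. Each of these 4 relations had an adjusted p of at least 0.639.

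The lowest r was that of Foxo1 with Pik3ip1 (r = -0.795; rho = -0.429), followed by S1pr1 with Pik3ip1 (r = -0.715; rho = -0.486) and Foxo3 with Ccr7 (r = -0.670; rho = -0.429), all with an adjusted p of 0.525. Foxo1 with Pik3ip1 was -0.365 without tumor 4 and 0.874 without tumors 4 and 6, and turned to 0.389 when CPM were scaled by library totals, and S1pr1 with Pik3ip1 came to -0.017 without tumor 4. The sign of r with Foxo1 differed between its known targets, with values of 0.381 with Klf2, 0.843 with S1pr1 and 0.420 with Ccr7, but -0.433 with Txnip, -0.795 with Pik3ip1 and -0.514 with Ccng2. Sesn3 had 0.389 with Foxo1. For Klf2, S1pr1 and Sesn3 the sign rests on tumor 4, and for Pik3ip1 and Ccr7 on tumors 4 and 6. Foxo1 with Sesn3 came to -0.052 without tumor 4, and Foxo1 with Ccr7 to -0.098 without tumors 4 and 6.

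**Figure D4:**
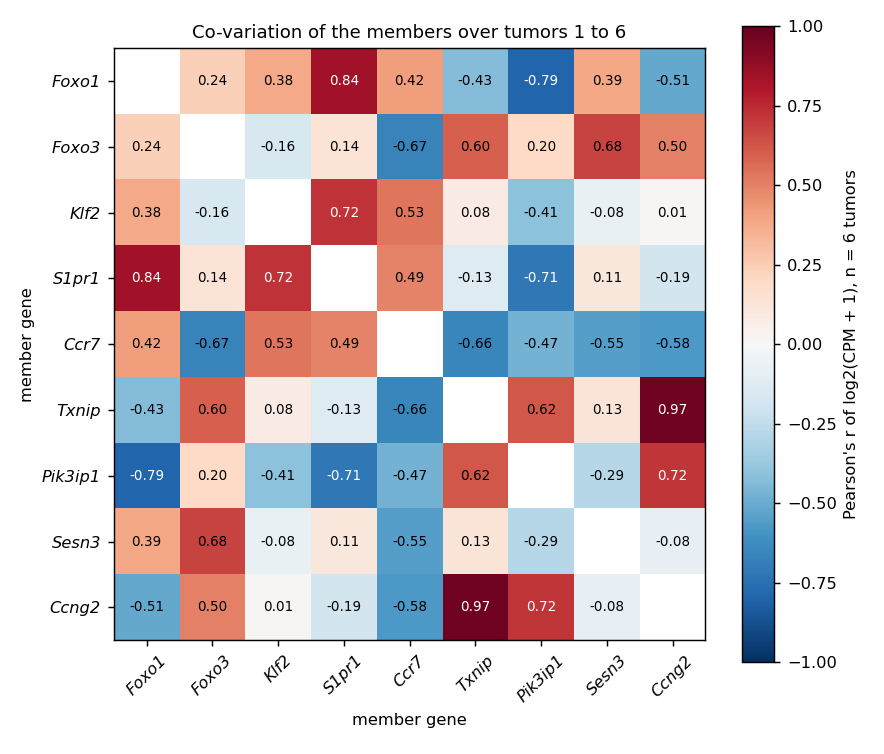
Pearson's r of log2(CPM + 1) between each pair of the 9 genes over tumors 1 to 6 (n = 6); red is positive and blue negative. Txnip with Ccng2 (0.97) and Foxo1 with S1pr1 (0.84) are the highest and Foxo1 with Pik3ip1 (-0.79) the lowest, and none passed adjustment.

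**Figure D5:**
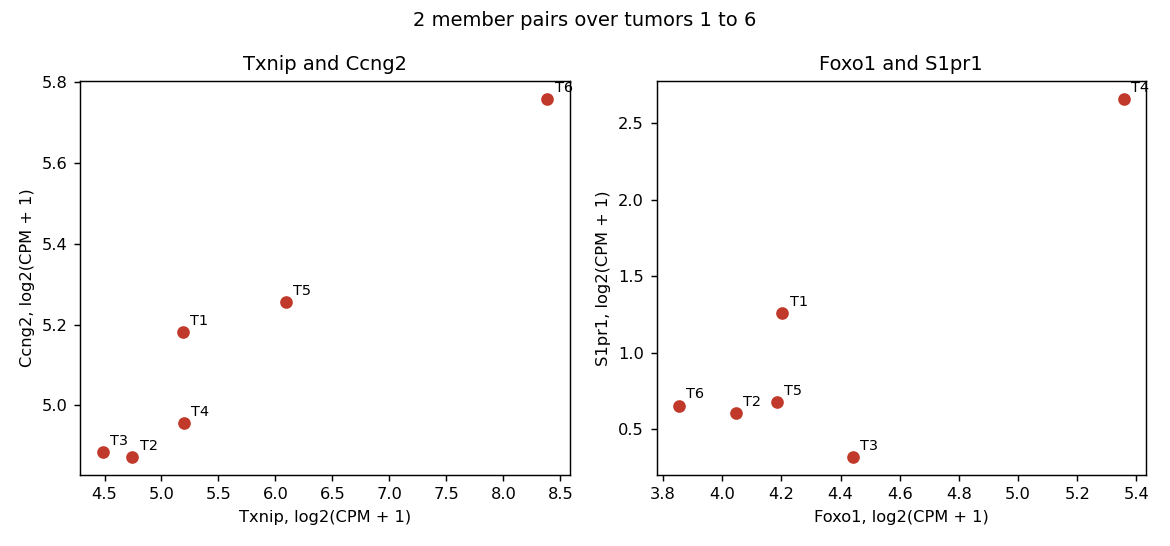
Log2(CPM + 1) of Ccng2 against Txnip and of S1pr1 against Foxo1, each point being 1 of tumors 1 to 6. Tumor 6 lies far out for Txnip and Ccng2, and tumor 4 for Foxo1 and S1pr1, where the other 5 points show no rise.

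Against Il7r, Foxo1 gave r = 0.057 (exact permutation p = 0.904, adjusted p = 0.920; rho = 0.314). Txnip and Ccng2 had r of -0.787 and -0.809 with Il7r (exact permutation p = 0.0472 and 0.05, both with an adjusted p of 0.525; rho = -0.771 for both). Il7r was lowest in tumor 6, at 33.3 CPM, where both genes were highest, and highest in tumor 3, at 513 CPM. Ccr7 had r = -0.840 with the proliferation gene Mki67 (exact permutation p = 0.0333, adjusted p = 0.525; rho = -0.886) and 0.929 with the mitochondrial percentage of the library (exact permutation p = 0.00833, adjusted p = 0.263; rho = 0.886). Mki67 was at 1345 to 4137 CPM in tumors 1 to 6, highest in tumor 5, which held no count of Ccr7.

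The genes whose pattern over tumors 1 to 6 was most like each of the 9 were ranked by Pearson r among 9512 protein-coding genes of at least 5 CPM. With 6 points and that many candidates, r is given as a description, and no p was computed. For Foxo1 these were Nr3c2 (0.982), Chrnb2 and Rab3gap1, and for Foxo3 Rttn (0.986), Pigm and Tmem168. For Klf2 they were Jak2 (0.972), Ints9 and Slfn8. For S1pr1 they included Dclre1a (0.979) and H2-K1, a class I histocompatibility gene that reached 225 CPM in tumor 4 against 9.12 to 26.9 CPM in the other 5. For Ccr7 they were Ttc41 (0.996), Glrx2 and Auts2, and for Txnip Cblb (0.977), Nckap1 and Gm9938. For Pik3ip1 they were Ssfa2 (0.969), Hist1h2bn and Inafm2, for Sesn3 Suclg2 (0.986), 0610010F05Rik and Rtn4, and for Ccng2 Pnrc1 (0.978), Hook1 and Olfr524.

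The transcripts behind the gene sums differed between the sets of libraries as well. Foxo1, Klf2, S1pr1 and Ccr7 each had 1 transcript in the deposited values, so nothing can be said of their isoforms. For Sesn3, transcripts annotated as retained introns or as processed without a coding sequence held 73.8% to 86.6% of the gene's estimated counts in the controls. That share was 53.1% to 83.0% for tumors 7 to 9 and 20.9% to 38.8% for tumors 1 to 6. The 95% Wilson interval in control 1 ran from 70.8% to 76.4% and that in tumor 1 from 34.2% to 43.7%, covering counting error only. For Pik3ip1 the share was 41.0% to 56.4%, 44.7% to 65.6% and 8.84% to 33.3% in the same order. For Ccng2 it was 68.5% to 79.4%, 55.2% to 76.8% and 47.6% to 66.1%, and for Txnip 21.3% to 34.3%, 13.8% to 28.3% and 6.61% to 27.1%.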

How the data were processed

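Per the file headers, the authors deposited kallisto estimated counts, effective lengths and lengths for each of 128622 transcripts in each of 12 libraries. TPM values, relative to the transcripts of a library, were deposited in the same files, per the file headers. Tools in the submitters' processing notes are FastQC and kallisto, with the build mm10, and the sources used here give neither versions nor the annotation release of the index. Gene coordinates are from GENCODE M21. kallisto divides reads among similar transcripts, so values of related genes are uncertain.

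Estimated counts were summed by gene symbol and rounded. Tumors were compared with controls in edgeR 4.0.16 (R 4.3.3) with the quasi-likelihood test, filterByExpr, TMM factors and Benjamini-Hochberg adjustment over all 40484 tested genes, without a replicate block. Levels in the text are TMM-scaled CPM, and levels per kilobase divide by the effective length of each transcript. Correlations use log2(CPM + 1). DESeq2 1.42.0, limma 3.58.1 on log2(TPM + 1), other factors, filters and omitted libraries were alternatives. In simulated counts for the comparison of tumors with controls over 40484 genes, 100% of 4-fold and 21% of 2-fold changes were recovered with 4 false calls, at a dispersion of 0.1. In the real data, fitted folds above 4 of the genes described were not called. Unscaled, 1 count stood for 0.0288 to 0.123 CPM.

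The 9 genes and the gene lists were chosen with earlier results of these data known. All 9 genes, Il7r and Mki67 were to be named. In each other list up to 4 genes past the threshold were named, or otherwise the 2 with the highest mean in tumors 1 to 6. For each of the 9 the 3 most alike genes were named. Of the genes these rules name, 2 are not reported here. Beside the lists of further FOXO-induced, PI3K-AKT, quiescence and related genes, 9 marker lists of cell types were used. No 2 libraries held identical values, the highest r between libraries being 0.952.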

Additional observations from a re-analysis of the deposited data

Results flagged for a closer look

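Among the 9 tumors, 3 of the 9 genes had a single library far from the others, by a rule on the gap to the nearest library over the whole range (Dixon's test at the 95% level, which chance meets in about 5% of groups). Foxo1 stood at 39.98 CPM in tumor 4, against 20.7 CPM in the next highest, tumor 3. S1pr1 stood at 5.322 CPM in tumor 4, against 2.66 CPM in tumor 7. Txnip stood at 333.7 CPM in tumor 6, against 67.3 CPM in tumor 5. In tumor 4 the summed markers of mature single-positive thymocytes (378 CPM) were the highest of the 12 libraries, and the part of such cells in the values was not tested.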

How the results depend on the processing

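Across all tumors edgeR called 0 genes higher and 2 lower. The count higher was 4031 by DESeq2, 125 by limma on log2(TPM + 1), 7564 without tumors 7 to 9 and 9 with tumors 7 to 9 only. The count lower was 51, 32091, 7822 and 9 in the same order, 0 with at least 5 CPM in 3 libraries, and 0 to 3 when each library was left out in turn. Of the 9 genes 0 were called; DESeq2 called 4 higher (with no adjusted p for Ccr7), the fit without tumors 7 to 9 called 6 higher, and limma on log2(TPM + 1) called 3 lower. The replicate block called 8363 genes higher and 2319 lower, and of the 9 genes 6 higher and 1, S1pr1, lower. Klf2 (edgeR adjusted p = 0.0231) was among these 6 and Sesn3 (0.0638) was not. Only the numbers 1 to 3 occur in both groups, so that contrast rests on tumors 1 to 3 against the 3 controls. As deviations from group means, same-numbered controls and tumors correlated by 0.0654, 0.0843 and -0.0947. The tumor mean pools tumors 1 to 6 with tumors 7 to 9, so these values cannot show whether same-numbered samples share an animal or batch. The filter of 5 CPM left no value for Klf2, S1pr1 and Ccr7. Directions turned for these log2 fold changes. With library totals, Foxo1 was at -0.56, Klf2 at -0.34, Ccr7 at -1.60 and Sesn3 at -1.20. On log2(TPM + 1), Foxo1 was at -0.52, Foxo3 -0.70, Klf2 -0.38, Ccr7 -0.90, Pik3ip1 -0.42, Sesn3 -2.20 and Ccng2 -0.070. Ccr7 was also at -0.21 with RLE factors, -0.23 with TMM from nuclear protein-coding genes, -0.21 with DESeq2, -0.11 without tumors 7 to 9, and -0.36 to 0.44 when each library was left out. Sesn3 was at -0.21 with the 5 CPM filter and -0.45 with tumors 7 to 9 only, where Pik3ip1 was at -0.13. The median r over pairs was 0.386 with library totals and 0.437 on log2(TPM + 1), and -0.015 (without tumor 6) to 0.202 (without tumor 1) when each tumor was left out. With library totals, r was -0.0092 for Klf2 with Ccr7, -0.371 for Foxo1 with Il7r and 0.389 for Foxo1 with Pik3ip1; on log2(TPM + 1) the last 2 were -0.672 and 0.314. Spearman's rho of Foxo1 with Foxo3 was -0.029. Leaving out each tumor gave -0.150 to 0.623 for Foxo1 with Foxo3, -0.699 to 0.530 for Foxo1 with Klf2, -0.318 to 0.700 for Foxo1 with Il7r and -0.199 to 0.966 for Foxo1 with S1pr1. The smallest adjusted p of the 63 relations was 0.0875 to 0.7 over the settings tried. The cause of these changes was not tested. Counting error limits Klf2, S1pr1 and Ccr7, which had 0 to 59 counts in tumors 1 to 6.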

Other observations

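Among the 11 other genes of quiescence, tumor 3 was the lowest of tumors 1 to 6 for Klf6 (3.95 CPM), Klf3 (13.5 CPM), Slfn2 (5.43 CPM) and Btg1 (9.88 CPM), 4 of the 11, against 7.54% of tested genes of at least 5 CPM. Klf6 and Klf3 are Krüppel-like factors related to Klf2, Slfn2 keeps naive T cells quiescent, and Btg1 restrains growth. Tumor 6 was the highest for Klf6 (47.6 CPM), Klf3 (104 CPM), Btg1 (105 CPM), Btg2 (114 CPM) and Peli1 (66.9 CPM), 5 of the 11, against 13.4% of those genes. These genes were singled out after their values were seen, and no test was made.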
